A study of Homo sapiens with 5 samples.

Results

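The genes described here encode nucleoporins, the proteins that build the nuclear pore complex, and karyopherins, the receptors that carry proteins and RNA through it. They were chosen by symbol: a gene was taken when its probe named that gene alone and its symbol began with NUP and a number, KPNA, KPNB, IPO and a number, or XPO and a number, leaving out NUPR genes, XPOT and pseudogenes. This gave 42 of the 18417 genes measured, 22 nucleoporins and 20 karyopherins. NUP62 was not among them, as its probe also named IL4I1. The data are 5 Affymetrix arrays hybridised with total RNA of RS4;11, an established human leukemia line that carries an MLL rearrangement. Cells on 3 arrays had received 10 uM SB216763, a compound that blocks the kinase GSK-3, and cells on 2 arrays the solvent DMSO alone (control), in each case for 20 h. All arrays come from this single line. Since the labels do not state whether each array had a culture of its own, the p-values speak only for spread among these 5 arrays and that spread may be technical.

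The nuclear pore is a ring of scaffold nucleoporins set in the nuclear envelope, with a channel filled by flexible nucleoporins rich in phenylalanine and glycine repeats, filaments towards the cytoplasm and a basket towards the nucleus. Importins bind cargo in the cytoplasm and release it in the nucleus, where the GTPase Ran is loaded with GTP, whereas exportins bind cargo together with Ran-GTP and release it in the cytoplasm. Dividing cells build new pores in each cycle, and NUP98 and NUP214 are known as partners in leukemia fusion genes.

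Values are log2 expression values, and every difference below is SB216763 minus control on that scale, from limma, with a standard error (SE) and a p-value adjusted over all 18417 genes by the Benjamini-Hochberg method. Array medians lay between 6.77 and 6.84, and background was set on each array at the 95th percentile of the values of 338 olfactory receptor genes, which lay between 5.99 and 6.19. Above it on all 5 arrays were 38 of the 42 genes. The label of the cells was only partly borne out by marker genes. Of 8 measured B cell precursor markers, CD79B, IGLL1 and PAX5 were above background on all arrays, whereas CD22, VPREB1, DNTT and CD34 were above it on none. All 7 myeloid markers were above background on all arrays, and their mean log2 value was 8.28 to 8.39 on SB216763 arrays, against 7.99 to 8.06 on control arrays. The mean of the B cell precursor markers was 6.05 to 6.22 on SB216763 arrays, against 6.08 to 6.11 on control arrays. The part of these markers in the differences below was not tested. Of 7 T and NK cell markers CD8A and NKG7 were above background on all arrays, and CD3D, CD3E, CD3G, CD2 and GNLY on none. Of 4 measured erythroid markers KLF1 was above background on all arrays and HBD on none.

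With SB216763, 8 of the 42 genes fell and 2 rose, while 32 did not pass the threshold of 0.05. The genes that fell were the import receptors IPO11, IPO4 and KPNA1, the export receptor XPO6, and the nucleoporins NUP88, NUP155, NUP210 and NUP153; the import receptor IPO7 and the cytoplasmic nucleoporin NUP42 rose. Every called change was below 1.5-fold in these arrays, from 1.29-fold lower for XPO6 to 1.46-fold lower for IPO11. In RNA of a whole culture, fewer cells of a type and less RNA per cell cannot be told apart.

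Over all genes tested, 13.1% were called, 5.92% lower and 7.21% higher, against 19.0% and 4.76% of the nuclear transport genes. All 10 called genes were above background on every array, and among all genes with that property 8.51% were called lower and 9.73% higher. With the arrays centred on their medians, 1545 genes were lower and 1041 higher, against 1090 and 1328 without centring, and the nuclear transport genes then counted 11 lower and 1 higher. The median difference of the 42 genes was -0.16, against 0.00 over all genes tested, and 32 of the 42 (76.2%) had a negative difference, against 49.3% of all genes. On 26 of them every SB216763 array was below both control arrays, 61.9% of the members against 19.9% of all genes, and on 4 every SB216763 array was above both, 9.52% against 21.6%.

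The calls depended on which arrays were used. Without control replicate 1 limma called 0 of the 42 genes and 1 of all 18417; 16 members were then lower and 1 higher at an unadjusted p under 0.05, against 10.3% and 9.24% of all genes. Without control replicate 2 it called 0 of the 42 and 0 of all genes, with 8 members lower and 3 higher unadjusted, against 8.98% and 12.5% of all genes. Without SB216763 replicate 1 the calls were 3 lower (IPO11, NUP88 and NUP155) and 0 higher, against 453 and 540 over all genes. Without SB216763 replicate 3 they were 6 lower and 0 higher, IPO7, NUP42, NUP210 and XPO6 being lost, against 798 and 808 over all genes. Without SB216763 replicate 2 all 10 genes were still called. With all 5 arrays, 18 members were lower and 3 higher at an unadjusted p under 0.05, against 12.2% and 14.3% of all genes. The median difference kept its sign whichever array was left out, between -0.24 without control replicate 1 and -0.12 without control replicate 2.

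**Figure D1:**
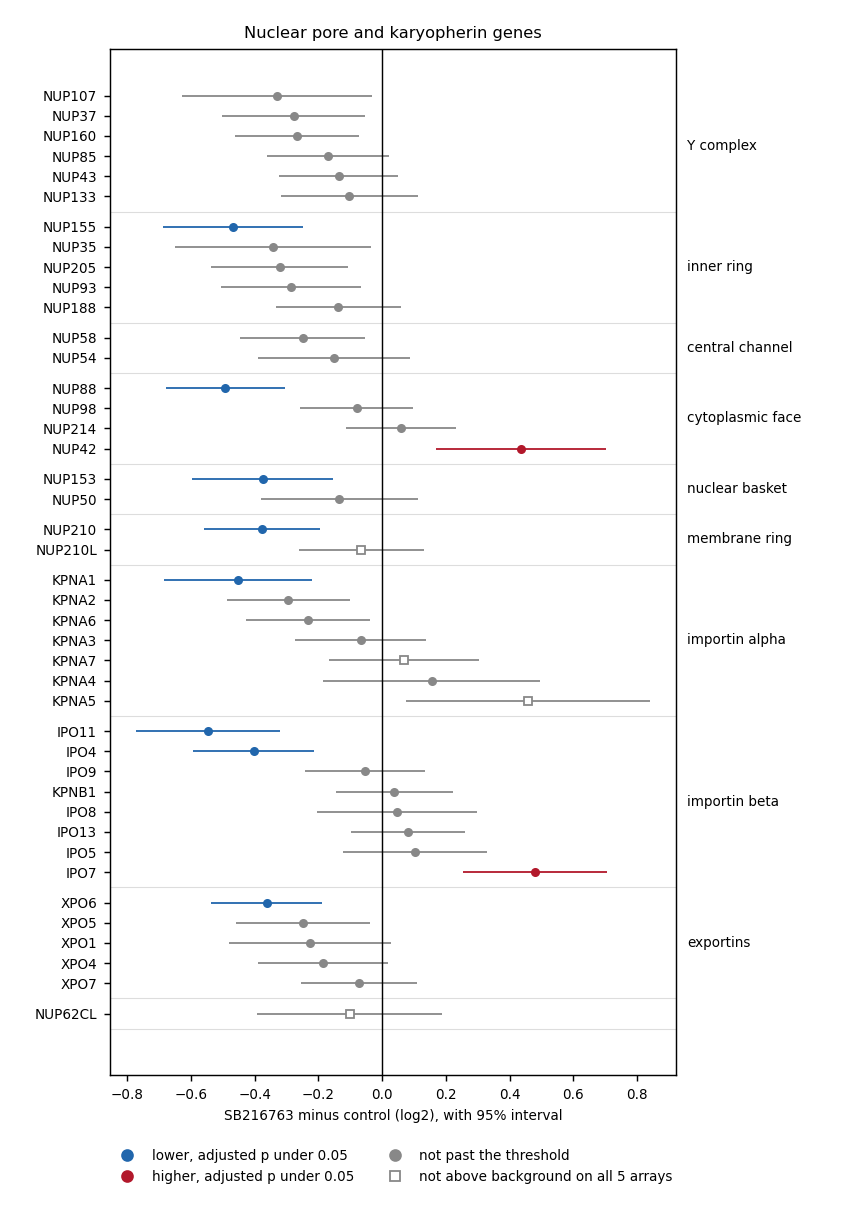
Difference between SB216763 and control (log2, horizontal axis) with its 95% interval for each of the 42 genes, grouped by role, from 3 SB216763 and 2 control arrays. Blue marks the 8 genes called lower and red the 2 called higher by limma; open squares are the 4 genes not above background on all 5 arrays. Most points lie left of 0, and IPO7, NUP42 and KPNA5 lie farthest right.

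Among the 42 genes, 6 belong to the outer and 5 to the inner ring. All 11 were lower on each SB216763 array than on both control arrays, as were 19.9% of all genes. Among genes above background on all arrays that share was 24.0%. Of the 11, 1 passed the test, against 5.92% of all genes called lower. The inner ring anchors the pore in the membrane. NUP155, which links that ring to the membrane, had 10.25, 10.02 and 10.23 on SB216763 replicates 1, 2 and 3, against 10.62 and 10.66 on control replicates 1 and 2. All 3 SB216763 values lay below both controls, and NUP155 fell by 0.47 (SE 0.09, adjusted p = 0.0174 by limma), or 1.38-fold. The other inner ring genes did not pass. NUP205 and NUP188, the large paired scaffold proteins, differed by -0.32 (SE 0.09, adjusted p = 0.0625) and -0.14 (SE 0.08). NUP93, the hub of the inner ring, differed by -0.28 (SE 0.09), and NUP35, a small membrane-binding subunit, by -0.34 (SE 0.13). The median of the 5 inner ring genes was -0.32. Without either control array NUP155 was not called.

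The outer ring is built from the Y complex, which also sits at kinetochores during mitosis. Of the 6 genes of this complex chosen by symbol, limma called 0, with 3 lower at an unadjusted p under 0.05, against 12.2% of all genes. The ordinary linear model also called 0, with 1 lower unadjusted, against 9.87% of all genes. SEH1L, a further subunit whose symbol lay outside the choice, was called lower and is given with the other pore components. The differences were -0.33 for NUP107 (SE 0.13), -0.28 for NUP37 (SE 0.10) and -0.27 for NUP160 (SE 0.08, adjusted p = 0.0804). NUP85, NUP43 and NUP133 differed by -0.17, -0.14 and -0.10, and the group's median was -0.22. With a variance trend 1 of the 6 was called lower, against 1439 over all genes, and with array weights 3, against 2152. The weighted fit rested mostly on SB216763 replicate 1, whose weight was 8.54, against 0.31 and 0.65 for SB216763 replicates 2 and 3. NUP107 had 9.90, 9.61 and 10.04 on SB216763 replicates 1, 2 and 3, against 10.13 and 10.22 on control replicates 1 and 2. Replicate 2 stood well below the other SB216763 arrays there, and the SD of 0.22 was above the median of 0.10 over the 42 genes.

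At the cytoplasmic face the genes went in both directions. NUP88, which holds NUP214 at the pore and takes part in protein export, had 9.55, 9.50 and 9.60 on SB216763 replicates 1, 2 and 3, against 9.99 and 10.10 on control replicates 1 and 2. The SB216763 arrays were close together and all below both controls, and the fall of 0.49 (SE 0.08, adjusted p = 0.00839 by limma) had the smallest p among the 42 genes. NUP42, which binds the messenger RNA export factor GLE1, had 8.00, 7.71 and 7.95 on SB216763 replicates 1, 2 and 3, against 7.34 and 7.56 on control replicates 1 and 2. Its groups did not overlap, and it rose by 0.44 (SE 0.11, adjusted p = 0.0451 by limma), or 1.35-fold, the nearest to the threshold of the 10 calls. NUP98, a repeat nucleoporin found on both faces of the pore, differed by -0.08 (SE 0.08, 95% interval -0.26 to 0.10), and NUP214, the filament partner of NUP88, by 0.06 (SE 0.07, 95% interval -0.11 to 0.23). Without either control array neither NUP88 nor NUP42 was called, and NUP42 was also lost without SB216763 replicate 1 or 3 and when arrays were centred on their medians (adjusted p = 0.0662).

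In the nuclear basket NUP153, which helps tether the basket and binds importins, had 9.99, 9.82 and 10.06 on SB216763 replicates 1, 2 and 3, against 10.35 and 10.31 on control replicates 1 and 2. All SB216763 values were below both controls, and NUP153 fell by 0.38 (SE 0.09, adjusted p = 0.0398 by limma). Its partner NUP50, which speeds the release of cargo from importin alpha, differed by -0.13 (SE 0.11), and its groups overlapped. NUP210, a glycoprotein that crosses the pore membrane, had 10.61, 10.55 and 10.60 on SB216763 replicates 1, 2 and 3, against 10.92 and 11.01 on control replicates 1 and 2. The groups were far apart relative to their spread, and NUP210 fell by 0.38 (SE 0.08, adjusted p = 0.0199). Of the central channel, which forms the barrier to diffusion, NUP58 and NUP54 differed by -0.25 (SE 0.08, adjusted p = 0.101) and -0.15 (SE 0.10). NUP210L and NUP62CL were above background on no array, and their differences of -0.07 and -0.10 carry little information. The calls of NUP153 and NUP210 were lost without either control array and without SB216763 replicate 1, and that of NUP210 also without SB216763 replicate 3.

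**Figure D2:**
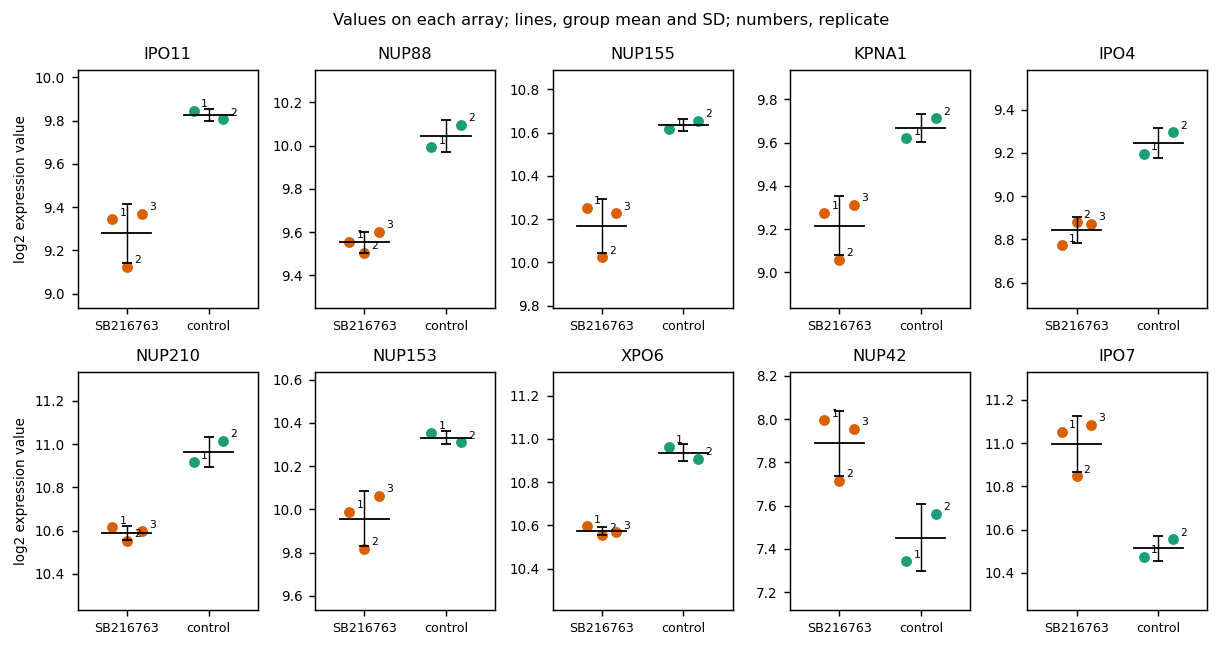
Log2 expression value on each array for the 10 called genes, SB216763 arrays on the left and control arrays on the right of each panel, with the group mean and SD as black lines and the replicate number beside each point. All panels span the same height on the log2 axis; the groups do not overlap in any of them, and SB216763 replicate 2 is the lowest of its group in every panel except that of IPO4.

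Importin alpha proteins are adaptors that bind the classical nuclear localisation signal and travel with importin beta. KPNA1, one of these adaptors, had 9.28, 9.06 and 9.31 on SB216763 replicates 1, 2 and 3, against 9.62 and 9.71 on control replicates 1 and 2. No SB216763 value reached the controls, and KPNA1 fell by 0.45 (SE 0.10, adjusted p = 0.0250 by limma), or 1.37-fold; the call was lost without either control array and without SB216763 replicate 1. KPNA2, the importin alpha most tied to proliferating cells, had 11.64, 11.52 and 11.64 on SB216763 replicates 1, 2 and 3, against 11.85 and 11.94 on control replicates 1 and 2. These groups did not overlap either, but the difference of -0.29 (SE 0.08, adjusted p = 0.0576) did not pass. KPNA2 was the only member with 2 probes, and the other probe differed by -0.30. KPNA6 and KPNA3 differed by -0.23 (SE 0.08) and -0.07 (SE 0.09).

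The remaining importin alpha genes had positive differences, of which none passed. KPNA4, an importer of NF-kB subunits, had 9.61, 9.21 and 9.72 on SB216763 replicates 1, 2 and 3, against 9.30 and 9.42 on control replicates 1 and 2, a difference of 0.16 (SE 0.15). KPNA5 had 6.35, 5.87 and 6.32 on SB216763 replicates 1, 2 and 3, against 5.55 and 5.89 on control replicates 1 and 2, a difference of 0.46 (SE 0.16, adjusted p = 0.119). In both genes SB216763 replicate 2 lay below at least 1 control array while the other SB216763 arrays lay above both. KPNA5 was above background only on SB216763 replicates 1 and 3, so no fold is given for it; without SB216763 replicate 2 its adjusted p was 0.0267. KPNA7, known from oocytes and early embryos, was above background on no array.

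Importins of the beta family bind cargo or the alpha adaptors directly and carry them through the channel. IPO11, which imports ubiquitin-conjugating enzymes, had the largest called difference of the 42 genes. Its values were 9.34, 9.12 and 9.37 on SB216763 replicates 1, 2 and 3, against 9.85 and 9.81 on control replicates 1 and 2. The groups were clearly apart, and IPO11 fell by 0.55 (SE 0.10, adjusted p = 0.0112 by limma). IPO4, an importer of histones, had 8.77, 8.88 and 8.87 on SB216763 replicates 1, 2 and 3, against 9.20 and 9.30 on control replicates 1 and 2. It was the single called gene in which SB216763 replicate 1, not 2, was the lowest, and it fell by 0.40 (SE 0.08, adjusted p = 0.0182). Both calls were lost without either control array, IPO4's also without SB216763 replicate 1.

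IPO7, which imports ribosomal proteins and, together with importin beta, linker histones, went the other way. It had 11.05, 10.85 and 11.08 on SB216763 replicates 1, 2 and 3, against 10.47 and 10.56 on control replicates 1 and 2. Every SB216763 value was above both controls, and IPO7 rose by 0.48 (SE 0.10, adjusted p = 0.0177 by limma), or 1.39-fold; of the 5 fits that left out 1 array, only that without SB216763 replicate 2 still called it. KPNB1, which encodes importin beta itself, differed by 0.04 (SE 0.08, 95% interval -0.15 to 0.22). IPO5, another importer of ribosomal proteins, differed by 0.10 (SE 0.10), IPO8, an importer of Argonaute proteins, by 0.05 (SE 0.11), and IPO13, which works in both directions, by 0.08 (SE 0.08). IPO9, an importer of core histones and actin, differed by -0.05 (SE 0.08). The 8 genes of this family had a median of 0.04, with 2 lower, 1 higher and 5 that did not pass. Over all genes tested 5.92% were called lower and 7.21% higher.

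All 5 exportin genes had negative differences, against 49.3% of all genes, with a median of -0.23. Of the 5, 1 passed, against 5.92% of all genes called lower. XPO6, which carries actin with profilin out of the nucleus, had 10.60, 10.56 and 10.57 on SB216763 replicates 1, 2 and 3, against 10.96 and 10.91 on control replicates 1 and 2. Its SB216763 arrays were the closest together of any called gene, with an SD of 0.02 against 0.04 in the control group, and it fell by 0.36 (SE 0.08, adjusted p = 0.0197 by limma). XPO1, the general exporter of proteins with a leucine-rich signal, had 11.19, 10.91 and 11.21 on SB216763 replicates 1, 2 and 3, against 11.29 and 11.37 on control replicates 1 and 2. All were below the controls, but the difference of -0.23 (SE 0.11, 95% interval -0.48 to 0.03) did not pass. XPO5, the exporter of microRNA precursors, differed by -0.25 (SE 0.09, adjusted p = 0.124), XPO4, which exports a translation factor, by -0.19 (SE 0.09), and XPO7 by -0.07 (SE 0.08), where the groups overlapped. The XPO6 call was lost without either control array and without SB216763 replicate 1 or 3.

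SB216763 replicate 2 was the lowest of the 3 SB216763 arrays for 34 of the 38 genes above background, 89.5%, against 48.1% of all 12058 genes above background. Relative to the control means, the median over the 42 genes was -0.14, -0.25 and -0.14 on SB216763 replicates 1, 2 and 3, against -0.04 and 0.04 on control replicates 1 and 2. The median of all genes on SB216763 replicate 2 was 0.04. Without this array, 8 members were called lower and 3 higher, against 1179 and 1680 over all genes, and the median difference was -0.14. The additional gene was KPNA5, which was above background on no control array. The SD among arrays had a median of 0.10 over the 42 genes in the SB216763 group and of 0.06 in the control group.

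**Figure D3:**
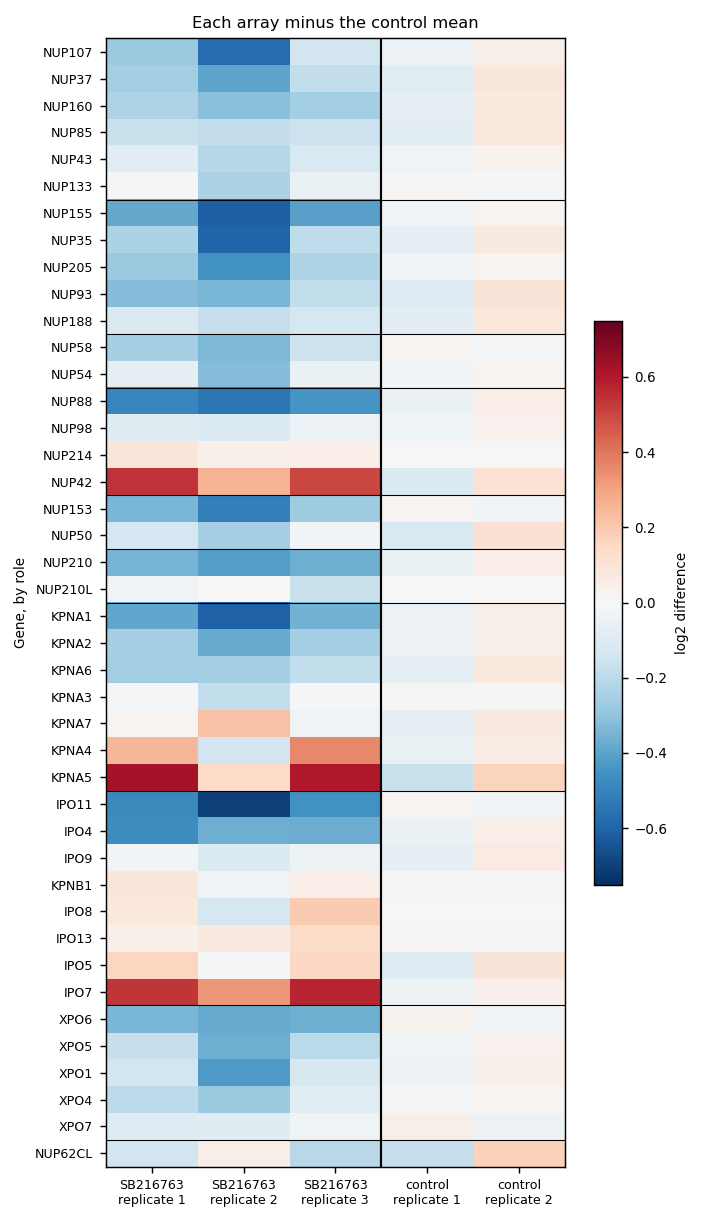
Each array minus the control mean (log2, colour) for the 42 genes in rows, grouped by role, with the 3 SB216763 arrays left and the 2 control arrays right of the black line. Blue is lower and red higher than the control mean; the blue is deepest on SB216763 replicate 2, where the median over the genes was -0.25.

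The bases before the start of the genes with the largest called falls, IPO11 and NUP88, and of both genes that rose, IPO7 and NUP42, are shown because these genes mark the extremes of the comparison. The sequences are from RefSeq, assembly GRCh38.p14, and each covers the 250 bases upstream of the gene's start, read along the gene: chr5:62412513-62412762 on the plus strand for IPO11, chr17:5419663-5419912 on the minus strand for NUP88, chr11:9384402-9384651 on the plus strand for IPO7 and chr7:23181798-23182047 on the plus strand for NUP42. Capitals mark matches, on either strand, to the letters CACGTG (the E-box bound by MYC), TTTGGCGC (an E2F site), TGACGTCA (the cAMP response element bound by CREB) and CCGGAAG (an ETS site).
IPO11: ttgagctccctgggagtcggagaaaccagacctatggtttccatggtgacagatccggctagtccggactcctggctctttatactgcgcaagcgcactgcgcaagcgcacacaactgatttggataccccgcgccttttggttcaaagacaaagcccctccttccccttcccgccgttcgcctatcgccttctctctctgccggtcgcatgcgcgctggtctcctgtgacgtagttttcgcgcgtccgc
NUP88: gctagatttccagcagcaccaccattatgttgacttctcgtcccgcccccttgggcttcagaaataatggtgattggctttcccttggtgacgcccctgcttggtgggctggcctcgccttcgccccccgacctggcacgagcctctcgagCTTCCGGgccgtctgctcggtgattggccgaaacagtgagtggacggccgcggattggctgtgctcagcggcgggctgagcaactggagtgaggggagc
IPO7: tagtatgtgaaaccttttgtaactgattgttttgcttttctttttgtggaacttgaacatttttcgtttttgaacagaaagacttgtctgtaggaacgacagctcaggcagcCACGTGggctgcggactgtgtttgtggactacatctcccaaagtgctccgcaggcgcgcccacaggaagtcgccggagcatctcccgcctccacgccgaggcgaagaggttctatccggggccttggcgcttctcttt
NUP42: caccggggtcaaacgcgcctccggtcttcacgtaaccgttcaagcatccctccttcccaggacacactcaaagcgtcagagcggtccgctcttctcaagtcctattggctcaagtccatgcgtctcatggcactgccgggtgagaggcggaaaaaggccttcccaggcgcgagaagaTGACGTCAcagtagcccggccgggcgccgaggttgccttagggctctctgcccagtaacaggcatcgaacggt

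Upstream sequence was matched for 36 of the 42 genes; KPNA4, KPNA5, KPNA7, KPNB1, NUP43 and XPO7 had no entry. The ETS letters lay upstream of 10 of the 36 genes, 27.8%, against 8.82% of 27305 genes in the table and 12.1% of the 14237 among them that were tested here: IPO4 and NUP88 among the called, and NUP107, NUP160, NUP214, NUP35, NUP37, NUP50, NUP54 and NUP58 among those that did not pass. The E-box letters lay upstream of 5, 13.9% against 6.49% and 7.86%, namely IPO4, which fell, IPO7, which rose, and KPNA3, NUP188 and NUP50, which did not pass. The cAMP response element lay upstream of 3, 8.33% against 1.77% and 2.37%: NUP42, which rose, and NUP133 and NUP214. None of the 36 held the E2F letters, which 0.553% of all and 0.695% of the tested genes did. The upstream bases shown for IPO11 held none of the 4 sets of letters searched. Only these exact letters were searched, so variant forms of the sites were not counted. The TTTCGCGC near the end of the IPO11 bases is such a variant of the E2F letters. No motif contains another, and E-box matches stood upstream of called genes in both directions. A match is a description of these letters and not a site shown to be bound.

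Other genes of nuclear transport whose symbols fall outside the choice were read on the same fit. All those measured were above background on all arrays. Among all genes with that property 8.51% were called lower and 9.73% higher, and over all genes tested 5.92% and 7.21%. Of 7 further pore components measured, 3 fell, none rose and 4 did not pass, and the median was -0.13. SEH1L, a Y complex subunit, fell by 0.56 (SE 0.11, adjusted p = 0.0160 by limma), the membrane nucleoporin NDC1 by 0.47 (SE 0.09) and RAE1, which binds messenger RNA, by 0.36 (SE 0.08), while SEC13 differed by -0.13 (SE 0.08). Of 8 further karyopherins limma called 0, with 2 lower at an unadjusted p under 0.05, against 12.2% of all genes. The ordinary linear model gave the same counts, against 9.87% of all genes lower unadjusted, and the variance trend called 2. CSE1L, which returns importin alpha to the cytoplasm, had 10.85, 10.55 and 10.87 on SB216763 replicates 1, 2 and 3, against 11.09 and 11.22 on control replicates 1 and 2. Its groups did not overlap, and its difference was -0.39 (SE 0.12, adjusted p = 0.0653). SNUPN, the import adaptor of spliceosomal particles, differed by -0.24 (SE 0.08), the transfer RNA exporter XPOT by -0.22 (SE 0.13) and the transportin TNPO2 by -0.10 (SE 0.07).

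The Ran cycle drives the direction of transport. RANBP1, which helps strip Ran-GTP from karyopherins, had 10.59, 10.50 and 10.73 on SB216763 replicates 1, 2 and 3, against 11.44 and 11.52 on control replicates 1 and 2. It fell by 0.87 (SE 0.09, adjusted p = 0.00187 by limma), or 1.83-fold, more than any of the 42 nucleoporin and karyopherin genes. RANGAP1, which makes Ran hydrolyse its GTP, fell by 0.47 (SE 0.08), whereas RAN itself differed by -0.30 (SE 0.11, adjusted p = 0.128) and RANBP3 by -0.18 (SE 0.08). Of the 6 measured genes of this cycle 2 fell (33.3%), none rose and 4 did not pass, and their median was -0.24. Among all genes above background on all arrays, 8.51% were called lower and 9.73% higher. Of 15 measured genes of messenger RNA export 3 fell (20.0%), none rose and 12 did not pass, the median being -0.15. The export adaptor ALYREF fell by 0.64 (SE 0.08), the helicase DDX39A by 0.41 (SE 0.08) and NXT1, the partner of the export receptor NXF1, by 0.34 (SE 0.09), and THOC6 differed by -0.21 (SE 0.08).

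Of 11 genes of the lamina and the inner nuclear membrane, 5 fell (45.5%), none rose and 6 did not pass, for a median of -0.34. Among all genes above background on all arrays, 8.51% were called lower and 9.73% higher. LBR, a lamina-binding membrane protein that also has sterol reductase activity, had 10.08, 9.97 and 10.14 on SB216763 replicates 1, 2 and 3, against 10.87 and 10.93 on control replicates 1 and 2. It fell by 0.84 (SE 0.09, adjusted p = 0.00153 by limma), or 1.79-fold. SUN2, which links the envelope to the cytoskeleton, fell by 0.60 (SE 0.09), TMPO, a lamina-associated protein, by 0.50 (SE 0.09) and the B-type lamin LMNB1 by 0.50 (SE 0.09). Of the 11 genes, 8 had negative and 3 positive differences. Every SB216763 array was below both controls for 8 (72.7%) and above both for 2 (18.2%). Among all genes above background on all arrays these shares were 24.0% and 27.3%. All calls in these 5 lists were lost without either control array. The median difference over their 47 genes was -0.21 without control replicate 1 and -0.13 without control replicate 2. Over all genes tested the medians of those fits were -0.01 and 0.02. Without SB216763 replicate 1 the lamina list had 2 genes called lower and the messenger RNA list 1. The ordinary linear model called 1 of the 47 genes lower, in the messenger RNA list, against 13 with limma. Both fits had 19 of the 47 lower at an unadjusted p under 0.05. Over all genes these shares were 9.87% with the ordinary model and 12.2% with limma.

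**Figure D4:**
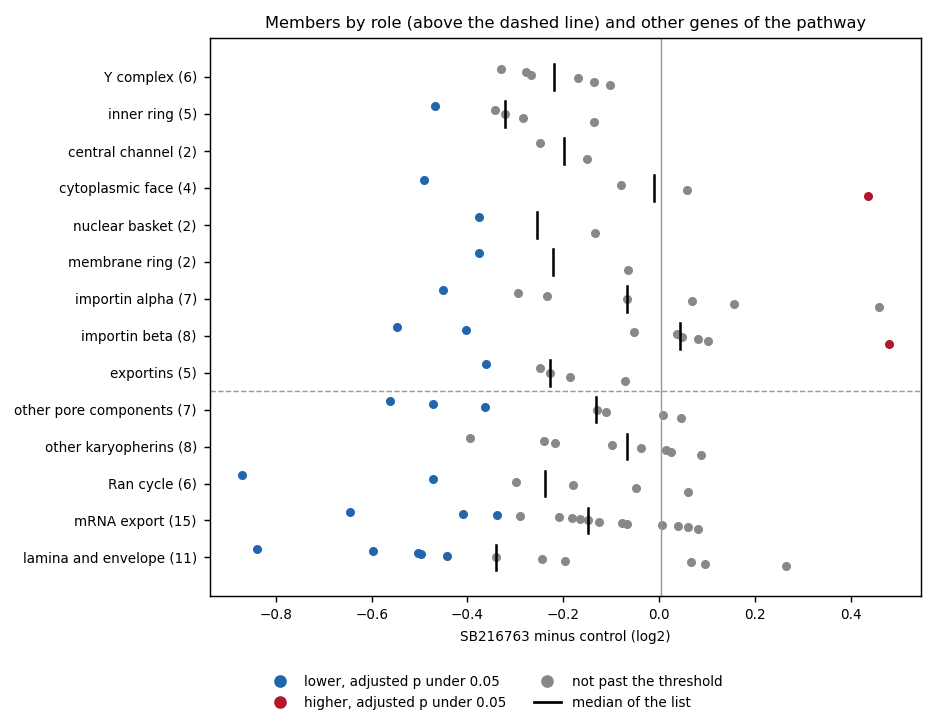
Difference between SB216763 and control (log2, horizontal axis) for every gene, a point each, of 9 role groups that hold the members other than NUP62CL (above the dashed line) and of the 5 further lists (below it), with the number of measured genes in brackets. Black bars are the medians, from -0.34 for the lamina and envelope to 0.04 for importin beta, the grey line is the median of all genes at 0.00, and RANBP1 and LBR are the points farthest left.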

How the data were processed

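The arrays of RS4;11 RNA numbered 5, and the sample titles gave the group and number of each. The authors deposited log2 expression values in 1 table of 33297 probes; the scale was inferred from the values, which run between 1.95 and 14.84. They were made with Affymetrix Expression Console, per the submitters' processing notes; the software's version, how probes were summarised and the build were not given in the sources used here. No further normalization was applied, and any pair of arrays shared at most 2.33% identical values. Array correlations were 0.992 to 0.996 within SB216763, 0.994 within control and 0.989 to 0.991 between groups.

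Probes were named through the platform annotation: 19460 named 1 gene, 1754 several and 12083 none here, and only the first kind was used. Symbols were checked against RefSeq for 19429 of them, with 0 updated. The probe with the highest mean over the 5 arrays stood for a gene. The comparison was made in R 4.3.3 with limma 3.58.1 (functions lmFit and eBayes, moderated degrees of freedom 7.62), two-sided, with Benjamini-Hochberg adjustment over 18417 genes and a threshold of 0.05. The number of arrays limits the precision. The procedure was tested on simulated data whose noise was independent between genes and arrays. Such data hold no shift shared by many genes on 1 array, so that test does not cover one. Every member was named; of each further list up to 4 genes with the smallest p were named. Members and lists were chosen with earlier results of these data known, and the motifs and the neighbouring genes were looked up after the values were seen. Tried as alternatives were leaving out dim genes, quantile normalization, centring, averaging the probes of a gene, a robust variance trend, an ordinary linear model, array weights, a block on replicate number, each array left out and all probes tested singly. pandas 2.3.3 and matplotlib 3.10.9 served for tables and plots.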

Additional observations from a re-analysis of the deposited data

How the results depend on the processing

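Of the 42 genes, the counts of 8 lower and 2 higher became 13 lower with a variance trend and robust settings, 16 lower with array weights, 3 lower and 0 higher when all probes were tested singly, and 0 lower and 0 higher with an ordinary linear model, which has 3 residual degrees of freedom and left 13 lower and 1 higher at an unadjusted p under 0.05. Centring each array gave 1 higher. Over all genes limma called 1090 lower and 1328 higher, the variance trend 1439 and 1688, and array weights 2152 and 2568. Testing singly called 745 lower and 1162 higher of all 33297 probes. The ordinary model called 125 genes lower and 126 higher. At an unadjusted p under 0.05 it had 9.87% of all genes lower and 11.4% higher. The weights were 8.54 for SB216763 replicate 1, 0.31 and 0.65 for SB216763 replicates 2 and 3, and 0.76 for each control array. The SB216763 mean in the weighted fit was therefore set mostly by 1 array, and its larger counts are not a stronger result. With each array left out in turn, the calls lay between 0 and 8 lower and 0 and 3 higher for the 42 genes, between 0 and 1179 lower and 0 and 1680 higher over all genes, and the median difference between -0.241 and -0.122. With 1 control array left, its spread is taken to equal that of the SB216763 arrays. The replicate number as a block called 6 lower and 1 higher of the 42, against 889 lower and 941 higher over all genes. As replicate number 3 has no control array, SB216763 replicate 3 did not enter the differences of that fit. They equal those without SB216763 replicate 3, with a median of -0.195 in both. The labels do not state whether arrays sharing a number belong together. Deviations of arrays sharing a number correlated at -0.0516 and -0.104. The deviations of the 2 control arrays mirror each other, so these correlations cannot decide whether the arrays are paired. The block's lost calls were NUP210, XPO6 and NUP42. The 10 called genes kept their direction under all 14 alternatives, which was nearly fixed in advance. Their groups did not overlap, so leaving out, weighting or blocking arrays could not reverse them. Of the rest, only quantile normalization and centring changed their differences at all. Of the 32 members not called, KPNA2 and NUP205 passed under 5 alternatives each. Genes near background, KPNA5, KPNA7, NUP62CL and NUP210L, allow no reading of their differences.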

Other observations

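Some members share a short stretch of DNA with a gene read in the opposite direction, by the starts given in RefSeq. XPO5 and POLH, a polymerase that copies past damaged bases, start 147 bases apart and head away from each other. POLH had 10.08, 9.93 and 10.04 on SB216763 replicates 1, 2 and 3, against 9.51 and 9.57 on control replicates 1 and 2, and it rose by 0.47 (SE 0.08, adjusted p = 0.0103 by limma), while XPO5 differed by -0.25 (SE 0.09, adjusted p = 0.124). All SB216763 arrays were above both controls for POLH and below both for XPO5.

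NUP88 and RPAIN, which encodes a partner of the single-strand binding protein RPA, start 520 bases apart. RPAIN had 8.91, 8.95 and 9.00 on SB216763 replicates 1, 2 and 3, against 9.00 and 8.95 on control replicates 1 and 2. It differed by -0.02 (SE 0.08, adjusted p = 0.919), while NUP88 fell by 0.49 (SE 0.08, adjusted p = 0.00839). Whether the members of such pairs differ from each other was not tested. The neighbours of NUP37, NUP98 and NUP188, which are PARPBP, PGAP2 and DOLK, differed by -0.07, 0.12 and -0.07, and none of them passed the threshold. These pairs were looked up after the values were seen.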
